A study of Noccaea goesingensis with 12 samples.

Results

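The genes described here are 32 loci for late embryogenesis abundant (LEA) proteins, dehydrins and other cold- or drought-induced proteins of *A. thaliana*, followed in roots of the Ni hyperaccumulator *Noccaea goesingensis*. They were chosen by identifier as the COR15, RD29 and KIN genes, the dehydrins, further LEA genes including EM, DI21 and SAG21, and RD20, RD22 and RD26. This choice was made with earlier results of these data known. Of the 32 genes, 5 were listed as different between the ecotypes with Ni and 14 without Ni, among 5273 genes listed in either state. Altogether 16 of the 32 were listed at least once, 3 in both states, 2 with Ni only and 11 without Ni only.

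Roots were compared between the metallicolous population from a serpentinite site (TM) and the non-metallicolous population from a dolomite site (NTM), each grown with or without Ni. By the sample labels, the groups were TM Ni (2 libraries), NTM Ni (3 libraries), TM control (4 libraries) and NTM control (3 libraries). The methods instead give 3 samples per group, and this difference was not settled. Whether a TM library carries the label of the other treatment is therefore not known. By the methods, each sample was made from the pooled roots of 5 plants, and Ni was given for 3 weeks. Plants of both populations were raised from seed collected at these sites from several plants. The labels and the methods give different accounts of the substrate and of the time in pots, and plant age at harvest is therefore not stated here. Each group has a single deposited expression value per gene, in FPKM (fragments per kilobase of gene, scaled for library size) according to the methods, although the column headers of the group files read TPM, and which of these it is was not settled. A table holds only genes whose unadjusted *p*-value between TM and NTM was under 0.05, which were 1944 genes with Ni and 4460 genes without Ni. A gene that is not listed may have been at or over that value, not tested, or removed by another filter. The level of such a gene is not given. As libraries were combined within groups, none of the values below carries a replicate error, no test across libraries was possible, and the number of reads behind each value is not held in the tables. One of the NTM Ni libraries was far shallower than the others in the alignment statistics of the study, and its part in the values with Ni was not tested. Reads of *N. goesingensis* were aligned to *A. thaliana*, so that each value belongs to the most similar *A. thaliana* locus, and copies of a gene in *N. goesingensis* cannot be told apart.

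LEA proteins are small, very hydrophilic and largely disordered proteins, first found in drying seeds, that protect membranes and enzymes when cells lose water. Dehydrins are the LEA class that carries the lysine-rich K-segment. In *A. thaliana* their genes answer to cold, drought and salt through a pair of main routes, the CBF factors acting on dehydration-responsive elements, and abscisic acid (ABA) acting through ABF transcription factors on ABA-responsive elements. The names and roles of genes given below are those known from *A. thaliana*.

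Without Ni, most of the listed members had the higher value in the TM ecotype. Of the 14 listed members, 10 stood higher and 4 lower in TM roots, where 44.5% of all 4460 listed genes stood higher in TM. At a TM over NTM ratio of 1 or more in size on the log2 scale, with 0.1 FPKM added to each value, 8 members were higher and 4 were lower. The same threshold was passed upward by 27.4% and downward by 32.8% of all listed genes, 60.2% in all. After centring on the median of all listed genes, which lay at -0.71, the numbers were 10 higher and 2 lower. The shares of all listed genes were 44.5% and 11.4%, and no member changed its direction. No listed log2 ratio was under 0.55 in size, so this shift put every gene higher in TM past the threshold. The centred upward count thus repeats the count of higher genes, and only the downward count could differ. At a threshold of 2 on the log2 scale, 4 members remained, *LEA18*, *LEA4-5*, *LEA7* and AT1G02820, each higher in TM (*LEA18* over a value of 0), where 12.2% of all listed genes passed. The median log2 ratio of the listed members was 1.59. A listed gene had to differ to be listed, and the smallest log2 ratio in the table without Ni was 0.55 in size. These shares therefore describe the listed genes only. In whole roots, fewer cells of a type and less RNA per cell cannot be told apart.

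**Figure D1:**
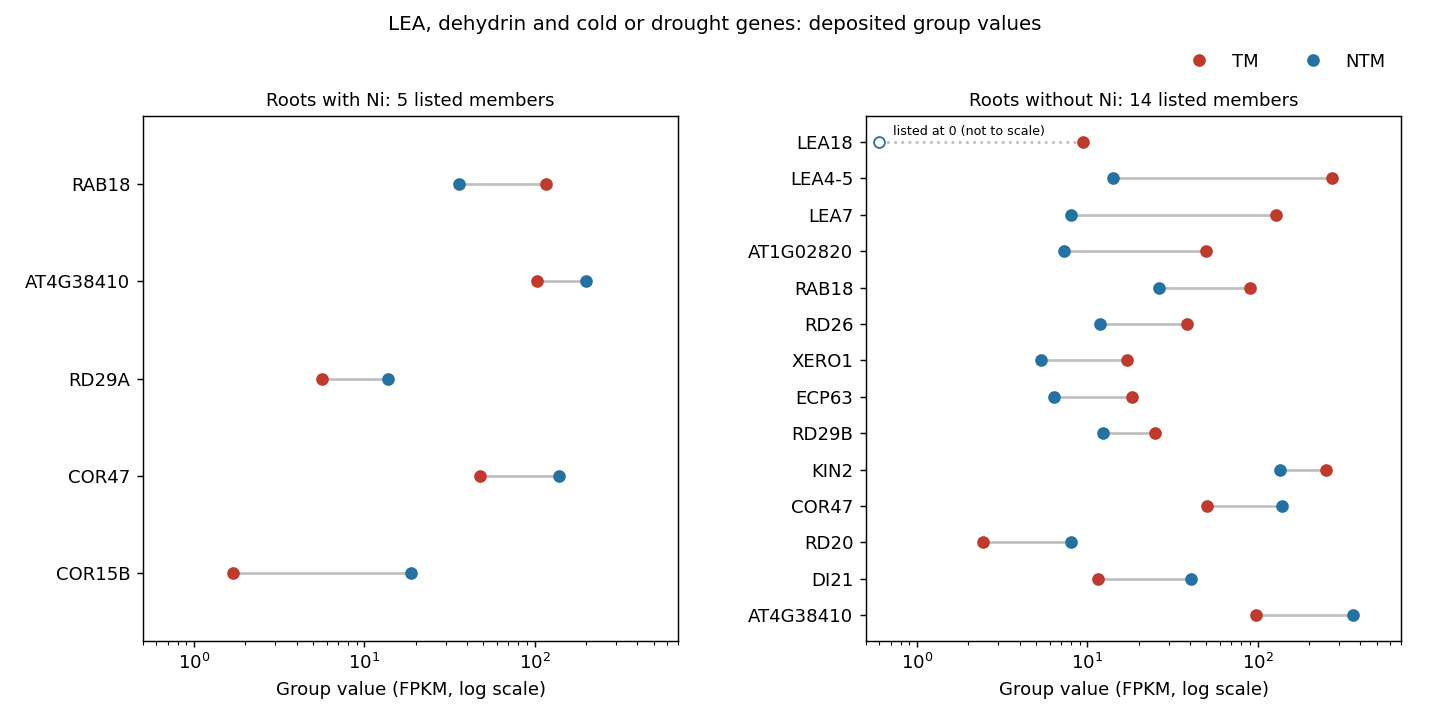
Deposited group values (FPKM, log scale) of the listed members in TM roots (red) and NTM roots (blue), 5 members with Ni on the left and 14 without Ni on the right, 1 value per group and no error. LEA4-5 had 273.1 FPKM in TM roots and 14.1 FPKM in NTM roots without Ni, and the open point marks LEA18, listed at 0 in NTM roots and drawn off scale.

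The widest differences without Ni were those of LEA genes outside the dehydrins. Of the 13 such members, 6 were listed, 5 of them higher and 1 lower in TM roots, each past the threshold. Of all listed genes, 27.4% passed it upward and 32.8% downward. *LEA4-5* (AT5G06760, chromosome 5 from 2089492 to 2090430), a LEA protein of vegetative tissue that accumulates under water deficit, had 273.1 FPKM in TM control roots and 14.1 FPKM in NTM control roots. This was a 19.4-fold higher value in TM, a log2 ratio of 4.27 that 25 of the 4460 listed genes exceeded. *LEA7* (AT1G52690), also a LEA protein induced by water deficit, had 128.8 FPKM in TM control roots and 8.00 FPKM in NTM control roots, a log2 ratio of 3.99 exceeded by 26 genes. The locus given for *LEA7* (chromosome 1 from 19619745 to 19623461) was 3717 bp long, the longest among the 16 listed members. Whether it takes in an overlapping gene model was not tested, and the values of *LEA7* may then include reads of another gene.

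The locus AT1G02820 (chromosome 1 from 623765 to 624475), a small LEA protein of the class that includes SAG21 and DI21, had 50.1 FPKM in TM control roots and 7.29 FPKM in NTM control roots. Its log2 ratio of 2.76 was exceeded by 72 genes. *ECP63* (AT2G36640), a LEA gene known mainly from embryos, had 18.4 FPKM in TM control roots and 6.38 FPKM in NTM control roots, with a log2 ratio of 1.51. *LEA18* (AT2G35300, chromosome 2 from 14862901 to 14863387) had 9.40 FPKM in TM control roots and was listed at 0 in NTM control roots, for which no fold is given. Its locus was 487 bp long. The 53 genes listed at 0 in 1 ecotype without Ni had a median locus length of 348 bp, and the other listed genes of 1925 bp, and no level is drawn from the 0 of *LEA18* in NTM. *DI21* (AT4G15910), a drought-induced gene of the SAG21 class, was the LEA gene of this group with the lower value in TM, at 11.6 FPKM in TM control roots and 40.4 FPKM in NTM control roots. Its log2 ratio was -1.80. Within this class of small LEA proteins, AT1G02820 and *DI21* thus differed in opposite directions without Ni.

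Dehydrins divided evenly without Ni. Of the 10 dehydrins, 4 were listed, 2 higher and 2 lower in TM roots. Each of the 4 passed the threshold, as did 60.2% of all listed genes. *RAB18* (AT5G66400, chromosome 5 from 26518277 to 26519242), the dehydrin used as a marker of ABA responses, had 90.9 FPKM in TM control roots and 26.2 FPKM in NTM control roots, a log2 ratio of 1.79. *XERO1* (AT3G50980) had 17.2 FPKM in TM control roots and 5.31 FPKM in NTM control roots, a log2 ratio of 1.68. The 2 dehydrins with the higher values in TM were thus *RAB18* and *XERO1*, and the 2 with lower values were the more abundant ones in NTM roots.

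The dehydrin locus AT4G38410 (chromosome 4 from 17980940 to 17981719) had 98.4 FPKM in TM control roots and 362.6 FPKM in NTM control roots, a log2 ratio of -1.88. It held the highest value of any listed member in NTM control roots. *COR47* (AT1G20440, chromosome 1 from 7084409 to 7085772), an acidic dehydrin induced by cold, had 50.8 FPKM in TM control roots and 138.8 FPKM in NTM control roots, a log2 ratio of -1.45. The 6 other dehydrins, *ERD10*, *ERD14*, *LTI30*, *HIRD11*, AT2G21490 and AT4G39130, were not listed in either state. *ERD10* and *ERD14* are the acidic dehydrins closest to *COR47* in sequence, and reads shared among such copies may be divided unevenly.

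Of the 6 COR15, RD29 and KIN genes, 2 were listed without Ni, both higher in TM roots. Neither passed the threshold, which 60.2% of all listed genes did. *KIN2* (AT5G15970), a small cold- and ABA-induced protein, had 251.1 FPKM in TM control roots and 135.5 FPKM in NTM control roots, a log2 ratio of 0.89. Its close copy *KIN1* (AT5G15960) was not listed, and reads of *KIN1* and *KIN2* may not be separable. *RD29B* (AT5G52300, chromosome 5 from 21237056 to 21239529), which in *A. thaliana* responds mainly to ABA, had 24.8 FPKM in TM control roots and 12.4 FPKM in NTM control roots. Its log2 ratio was 0.998 with 0.1 FPKM added, just below the threshold, and its ratio without that addition was 2.01-fold.

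Among the 3 dehydration-responsive RD genes, 2 were listed without Ni, in opposite directions. *RD26* (AT4G27410), a NAC transcription factor induced by ABA and drought, had 38.3 FPKM in TM control roots and 11.9 FPKM in NTM control roots, a log2 ratio of 1.68. *RD20* (AT2G33380), a calcium-binding caleosin of lipid droplets, had 2.44 FPKM in TM control roots and 7.97 FPKM in NTM control roots, a log2 ratio of -1.66. *RD22*, encoding a BURP-domain protein, was not listed in either state.

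**Figure D2:**
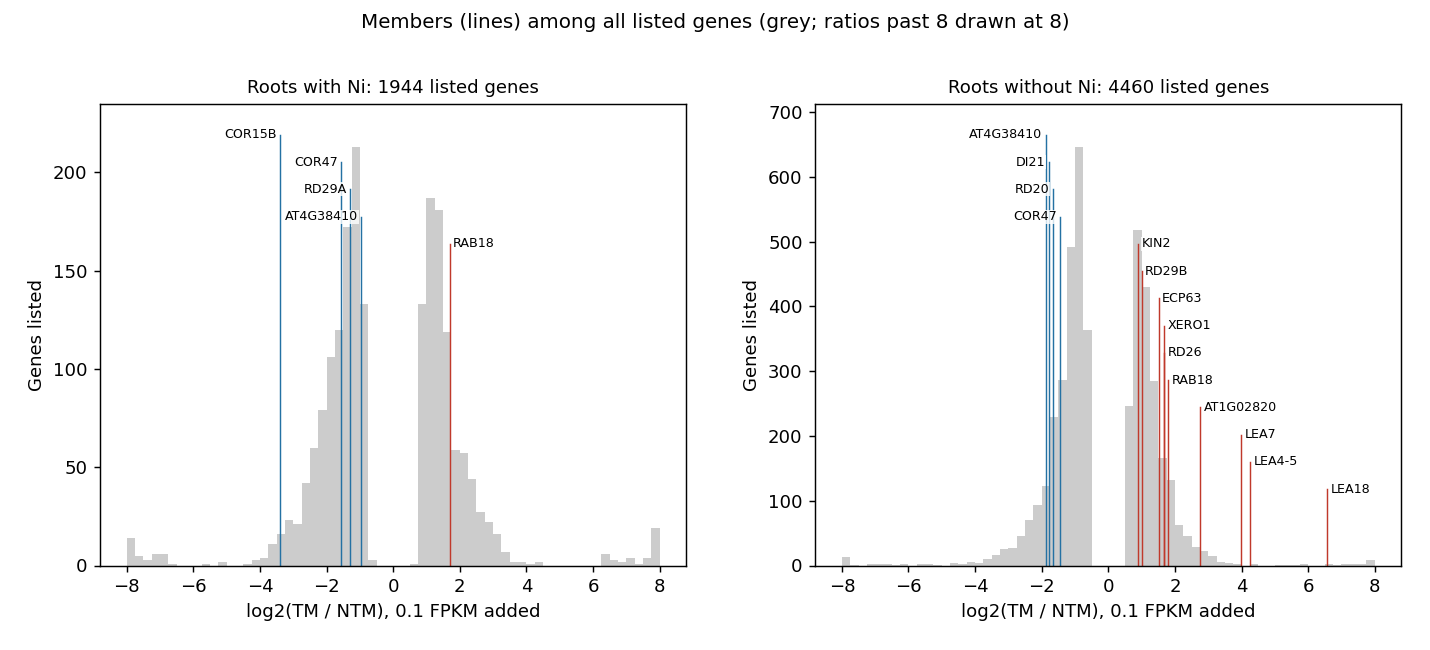
Number of listed genes (vertical axis) by log2 ratio of TM over NTM with 0.1 FPKM added (horizontal axis), with Ni on the left and without Ni on the right, and the listed members as lines. Without Ni, *LEA7* and *LEA4-5* lie at 3.99 and 4.27, beyond nearly all listed genes, and the place of *LEA18* is set by the 0.1 FPKM added to a value of 0.

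The ordering of the members by level differed between the ecotypes. On the FPKM scale, which is per length of gene, *LEA4-5* (273.1 FPKM), *KIN2* (251.1 FPKM) and *LEA7* (128.8 FPKM) were the 3 highest listed members in TM control roots. In NTM control roots the 3 highest were AT4G38410 (362.6 FPKM), *COR47* (138.8 FPKM) and *KIN2* (135.5 FPKM). AT4G38410 made up 46.7% of the summed FPKM of the 14 listed members in NTM control roots, and *LEA4-5* made up 25.6% of this sum in TM control roots. Without replicate values, it cannot be said which neighbours in these orders differ beyond their spread, as with *KIN2* and *COR47* in NTM roots.

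With Ni, the listed members stood mostly lower in TM roots. Of the 5 listed members, 1 was higher and 4 were lower in TM, where 46.2% of all 1944 listed genes were higher. The threshold of 1 on the log2 scale was passed by 1 member upward and 3 downward, and by 86.1% of all listed genes (39.4% upward and 46.8% downward), so that passing it does not set the members apart. Centred on the median of all listed genes with Ni, -0.91, the numbers were 1 upward and 1 downward. The shares of all listed genes were 46.2% and 16.8%, again with no member changing direction. No listed log2 ratio was under 0.74 in size, so the centred upward count again repeats the count of genes higher in TM. At a threshold of 2, *COR15B* alone remained, where 26.6% of all listed genes passed. The median log2 ratio of the 5 members was -1.29.

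*COR15B* (AT2G42530, chromosome 2 from 17709036 to 17709945), a cold-induced protein of the chloroplast stroma, had 1.69 FPKM in TM Ni roots and 18.8 FPKM in NTM Ni roots. This was the widest difference among the members with Ni, an 11.1-fold lower value in TM with a log2 ratio of -3.40, and 65 of the 1944 listed genes had a lower ratio. *COR15A*, its neighbouring copy in *A. thaliana*, was not listed in either state, and reads of the 2 copies may not be separable. *RD29A* (AT5G52310, chromosome 5 from 21240849 to 21243613), a gene with both cold and ABA responses, had 5.61 FPKM in TM Ni roots and 13.8 FPKM in NTM Ni roots, a log2 ratio of -1.29. *RD29A* and *RD29B* lie 1319 bp apart in the coordinates of the tables. *RD29A* was listed with Ni only and lower in TM, and *RD29B* without Ni only and higher in TM. Neither can be followed across both states in these tables.

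The 11 members listed without Ni only, *LEA4-5* and *LEA7* among them, have no value with Ni here. For those 2 genes, whose values differed 19.4-fold and 16.1-fold without Ni, it therefore remains unknown how the ecotypes compared under Ni. The table with Ni rests on fewer libraries by the labels and holds no log2 ratio under 0.74 in size.

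The 3 members listed in both states, all dehydrins, kept the direction of their ecotype difference. Opposite directions in the 2 states were found in 1.06% of the 1131 genes listed in both tables. The methods describe scaling across all libraries, and whether the Ni and control tables came from a single scaling was not settled, so a difference with Ni within an ecotype is set across tables and carries no test. At a log2 ratio of Ni over control of 1 or more in size, 0 of the 3 members passed in either ecotype, where 4.6% of the 1131 genes did in TM and 8.13% in NTM.

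*RAB18* had 117.2 FPKM in TM Ni roots and 90.9 FPKM in TM control roots, and 36.1 FPKM in NTM Ni roots and 26.2 FPKM in NTM control roots. The log2 ratios of Ni over control were 0.37 in TM and 0.46 in NTM. *RAB18* was thus higher with Ni in both ecotypes, and its log2 ratio of TM over NTM was 1.70 with Ni and 1.79 without Ni. *COR47* had 47.5 FPKM in TM Ni roots and 50.8 FPKM in TM control roots, and 139.5 FPKM in NTM Ni roots and 138.8 FPKM in NTM control roots. Its values with and without Ni nearly coincided in both ecotypes, with TM over NTM at -1.55 on the log2 scale with Ni and -1.45 without Ni. AT4G38410 had 103.7 FPKM in TM Ni roots and 98.4 FPKM in TM control roots, and 201.1 FPKM in NTM Ni roots and 362.6 FPKM in NTM control roots. On the log2 scale, Ni over control was 0.08 in TM and -0.85 in NTM, and the ratio of TM over NTM was -0.95 with Ni and -1.88 without Ni. The narrower ecotype difference of AT4G38410 with Ni thus lay on the side of the NTM value. *COR47* and AT4G38410 had Ni ratios of opposite sign in the ecotypes, which 48.6% of the 1131 genes also had.

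**Figure D3:**
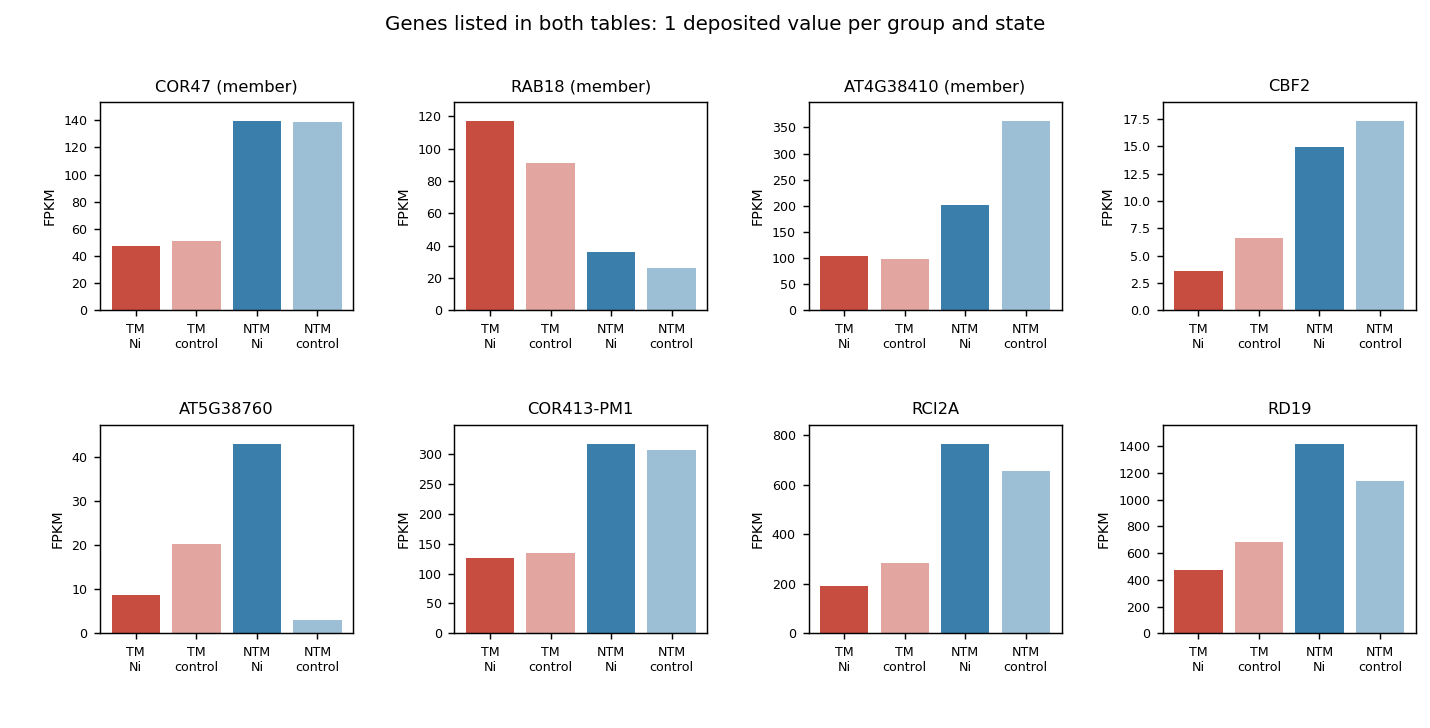
Group values (FPKM, bars from 0, 1 value per group and no error) of the 8 genes of the lists that were listed with and without Ni, TM in red and NTM in blue, Ni dark and control pale. COR47 (47.5, 50.8, 139.5 and 138.8 FPKM from left to right) shows ecotype levels that nearly coincide with and without Ni, and AT5G38760 (8.58, 20.2, 42.9 and 2.93 FPKM) an order of the ecotypes that differs between the states.

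The transcription factors upstream of these genes were looked up in a fixed list of 30 regulators, of which 6 were listed without Ni. Of these, 1 was higher and 4 were lower in TM past the threshold, which 27.4% of all listed genes passed upward and 32.8% downward. *CBF1*, *CBF2* and *CBF3*, which switch on the cold-regulated genes, had lower values in TM control roots. *CBF3* (AT4G25480) had 2.80 FPKM in TM control roots and 10.5 FPKM in NTM control roots, a log2 ratio of -1.86. *CBF1* (AT4G25490) had 1.85 FPKM in TM control roots and 6.61 FPKM in NTM control roots, a log2 ratio of -1.78. *CBF2* (AT4G25470) had 6.60 FPKM in TM control roots and 17.3 FPKM in NTM control roots, a log2 ratio of -1.38. These *CBF* genes lie side by side on chromosome 4 and are close copies, so their reads may not be separable and they do not count as 3 separate observations. *ZAT10* (AT1G27730), a zinc finger repressor induced by cold and drought, had 77.0 FPKM in TM control roots and 293.5 FPKM in NTM control roots, a log2 ratio of -1.93.

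The only regulator past the threshold in the other direction was *ABF3* (AT4G34000), an ABF factor of the ABA route, named after its value was seen. It had 101.2 FPKM in TM control roots and 48.1 FPKM in NTM control roots, a log2 ratio of 1.07. With Ni, 3 regulators were listed, 0 higher and 2 lower in TM past the threshold, which 39.4% of all listed genes passed upward and 46.8% downward. The listed regulator short of the threshold was *ABF2* (AT1G45249), also an ABF factor and lower in TM. It had 36.0 FPKM in TM Ni roots and 64.0 FPKM in NTM Ni roots, a log2 ratio of -0.83. That direction turned on centring on the median of all listed genes. *NAC055* (AT3G15500), a NAC factor related to *RD26*, had 2.15 FPKM in TM Ni roots and 15.6 FPKM in NTM Ni roots, a log2 ratio of -2.80. *CBF2* had 3.62 FPKM in TM Ni roots and 14.9 FPKM in NTM Ni roots, a log2 ratio of -2.02, in the direction seen without Ni.

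**Figure D4:**
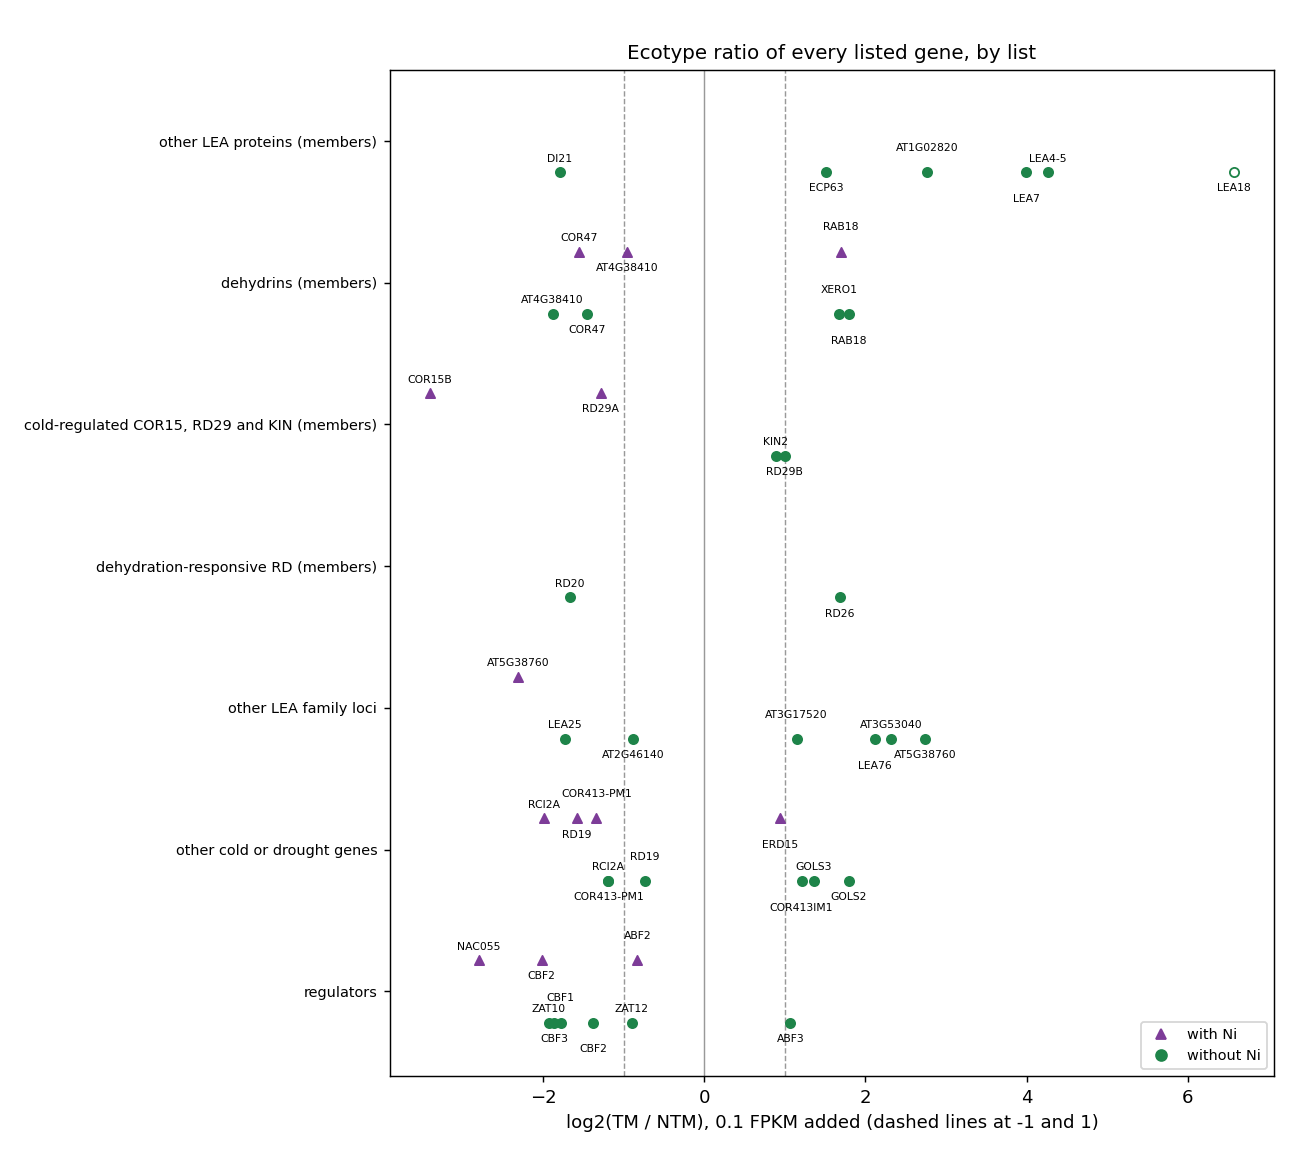
Log2 ratio of TM over NTM with 0.1 FPKM added (horizontal axis) of every listed gene of the members' groups and of the fixed lists, with Ni as triangles and without Ni as circles. Without Ni, 5 of the 6 listed LEA proteins outside the dehydrins lie right of 1, and CBF1, CBF2 and CBF3 lie left of -1. Of all listed genes without Ni, 27.4% had a ratio of 1 or more and 32.8% of -1 or less. The open circle is LEA18, listed at 0 in NTM.

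Of 28 other LEA family loci, 6 were listed without Ni, 4 past the threshold upward and 1 downward in TM. Of all listed genes, 27.4% passed it upward and 32.8% downward. AT5G38760, a small LEA locus, had 20.2 FPKM in TM control roots and 2.93 FPKM in NTM control roots, a log2 ratio of 2.74. AT3G53040 had 6.79 FPKM in TM control roots and 1.28 FPKM in NTM control roots, a log2 ratio of 2.32. *LEA76* (AT3G15670) had 11.6 FPKM in TM control roots and 2.60 FPKM in NTM control roots, a log2 ratio of 2.12. These LEA loci outside the member list, named for their large ratios, lay on the same side as *LEA4-5* and *LEA7*, at lower levels. Of the 6 listed loci, 4 were higher and 2 lower in TM. The list was chosen with earlier results of these data known. *LEA25* (AT2G42560) was the exception past the threshold, with 1.06 FPKM in TM control roots and 3.74 FPKM in NTM control roots. AT2G46140 was also lower in TM, short of the threshold. It had 70.3 FPKM in TM control roots and 129.4 FPKM in NTM control roots, a log2 ratio of -0.88. With Ni, AT5G38760 was the 1 listed locus, and its order was turned round, with 8.58 FPKM in TM Ni roots and 42.9 FPKM in NTM Ni roots and a log2 ratio of -2.31.

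Of 19 other cold- or drought-induced genes, 6 were listed without Ni, 3 past the threshold upward and 2 downward in TM. With Ni 4 were listed, 0 past it upward and 3 downward. The listed gene short of the threshold with Ni was *ERD15* (AT2G41430), higher in TM. It had 504.6 FPKM in TM Ni roots and 262.4 FPKM in NTM Ni roots, a log2 ratio of 0.94. Of all listed genes, 27.4% passed upward and 32.8% downward without Ni, and 39.4% and 46.8% with Ni. *GOLS2* (AT1G56600) and *GOLS3* (AT1G09350), galactinol synthases that make osmoprotectants, had log2 ratios of 1.80 and 1.36 without Ni. *GOLS2* had 26.5 FPKM in TM control roots and 7.57 FPKM in NTM control roots. *COR413IM1* (AT1G29395), a cold-regulated protein of the chloroplast envelope, had 8.28 FPKM in TM control roots and 3.53 FPKM in NTM control roots, a log2 ratio of 1.21. *RCI2A* (AT3G05880), a small membrane protein induced by cold, had 192.1 FPKM in TM Ni roots and 764.2 FPKM in NTM Ni roots, and 285.3 FPKM in TM control roots and 655.2 FPKM in NTM control roots. Its ratio of TM over NTM was thus below 0 on the log2 scale in both states, -1.99 with Ni and -1.20 without Ni. The locus given for *RCI2A* was 3074 bp long, and whether it takes in an overlapping gene model was not tested. *RD19* (AT4G39090), a cysteine protease induced by dehydration, and *COR413-PM1* (AT2G15970), a cold-regulated membrane protein, were also lower in TM in both states. The log2 ratio of *RD19* was -1.58 with Ni and -0.74 without Ni, the latter short of the threshold. That of *COR413-PM1* was -1.34 with Ni and -1.19 without Ni.

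Markers of tissue were looked up as a check of the labelled roots. Of 7 root markers, 1 was listed, without Ni, and of 7 shoot markers 2 were listed, also without Ni. *SCR*, a gene of the root endodermis, had 10.8 FPKM in TM control roots and 18.5 FPKM in NTM control roots. The chlorophyll-binding protein genes *CAB1* and *CAB3* had 23.1 and 26.7 FPKM in TM control roots and 45.0 and 88.8 FPKM in NTM control roots. The listed shoot markers were thus lower in TM, with log2 ratios of -0.96 for *CAB1*, short of the threshold, and -1.73 for *CAB3*. Of all listed genes without Ni, 44.5% were higher in TM. *CAB1* and *CAB3* lie near each other on chromosome 1, and their reads may not be separable. The part of these markers in the differences of the members, *COR47* and AT4G38410 among them, was not tested. Of 5 seed markers, 0 were listed in either state, and the seed LEA genes *EM1* and *EM6* were not listed either. A marker that is not listed can stand at any level, so that *SCR* was the 1 root marker shown to be present, in both ecotypes, and the other 6 could not be checked.

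The members listed in neither state numbered 16. Besides the 6 dehydrins they were *COR15A*, *KIN1*, *RD22*, the seed genes *EM1* and *EM6*, *LEA4-1*, *LEA14*, *SAG21*, AT5G53820 and AT3G02480. Their levels are not given here, and nothing can be said of their difference between the ecotypes.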

How the data were processed

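Reads from 12 libraries were trimmed by the authors with cutadapt 1.8.1, aligned to *A. thaliana* (TAIR10 in the submitters' processing notes) with HISAT2 2.1.0 at its defaults, and evaluated with Cuffdiff of Cufflinks 2.2.1. The FPKM deposited by the authors are single values per group, scaled by geometric normalization. The authors also deposited an unadjusted p-value and a log2 fold change for TM against NTM, which hold their own comparison and were not used, except to check that 0 rows had a p-value of 0.05 or more. Values of the group files and the comparison tables differed in 0 cases, and every value column was mapped to a group.

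Log2 ratios of TM over NTM, and of Ni over control for the 1131 genes in both tables, were computed from the deposited FPKM with 0.1 FPKM added, and called at 1 or more in size. Counts of members were set beside the same share of all listed genes. The members and lists were chosen with earlier results of these data known. All members are accounted for. Of each other list, up to 4 genes past the threshold are named per table, those with the largest ratios, and others only where stated or where listed in both tables. The tables hold identifiers only, and symbols and roles are those in use for *A. thaliana*. Starts are counted from 1. No tests were run, since no group has more than 1 value. The computation was tested on simulated data. Alternatives were a pseudocount of 1 FPKM, none, a minimum of 1 FPKM, centring on the median, and a threshold of 2. Python 3.11.15, numpy 2.4.6, pandas 2.3.3 and matplotlib 3.10.9 were used.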

Additional observations from a re-analysis of the deposited data

Results flagged for a closer look

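Several genes listed in both tables differed in the sign of a ratio between ecotypes or between states, each from 1 value per group. None of these differences was tested, and the ratios of Ni over control are set across tables, for which a single scaling was not settled. Over all 1131 genes in both tables, 48.6% had opposite signs of the Ni ratio in the ecotypes, so an opposite sign alone does not set a gene apart.

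Among the members, *COR47* had log2 ratios of Ni over control of -0.097 in TM and 0.0069 in NTM, both close to 0. AT4G38410 had 0.077 in TM and -0.85 in NTM, and 138 of the 1131 genes had a ratio larger in size in NTM.

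Outside the members, AT5G38760 had log2 ratios of Ni over control of -1.23 in TM and 3.83 in NTM. In NTM, 5 of the 1131 genes had a ratio larger in size, and 0 had a higher ratio. Its log2 ratio of TM over NTM was -2.31 with Ni and 2.74 without Ni. For *COR413-PM1* the Ni ratios were -0.099 in TM and 0.048 in NTM, for *RCI2A* -0.57 in TM and 0.22 in NTM, and for *RD19* -0.53 in TM and 0.31 in NTM.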

How the results depend on the processing

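The counts of members depended on the threshold and on centring, and moved by at most 1 with the pseudocount or the minimum of 1 FPKM. At a threshold of 2 on the log2 scale, 1 member passed with Ni, 0 higher and 1 lower in TM, and 4 passed without Ni, 4 higher and 0 lower. Of all listed genes, 26.6% passed that threshold with Ni and 12.2% without Ni. Centring on the median of all listed genes left 2 members in all with Ni, 1 of them lower, and 10 members higher and 2 lower without Ni. The centred shares of all listed genes were 46.2% higher and 16.8% lower with Ni (63.0% in all), and 44.5% higher and 11.4% lower without Ni. Since few listed genes lie near 0, this median lies among the genes lower in TM. Centring therefore puts every listed gene higher in TM past the threshold. The centred upward counts thus repeat the counts of higher genes. With the minimum of 1 FPKM, *LEA18* dropped out and 7 members were higher without Ni. With no pseudocount *RD29B* passed the threshold and *LEA18*, listed at 0, dropped out, which left 8 higher. No member changed direction, and 0 of the 3 members in both tables passed for Ni under any setting.

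No paired analysis was possible because each group has 1 deposited value. For the same reason no library was left out in turn.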
